A study of Rattus norvegicus with 9 samples.

Results

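Osteopontin and its cell-surface receptors were examined in fetal rat lungs. The genes were chosen by name: Spp1, which encodes osteopontin, and 8 receptor genes, Cd44, Itgav, Itgb1, Itgb3, Itgb5, Itga4, Itga9 and Itga5. Spp1 was included because its level was already known to differ between these groups, so its values below are a description and carry no test. The receptor genes were included as known binding partners of the protein. Of the 9 genes, 7 were matched by Gene ID to the 17465 genes of the deposited table, and all 7 passed the filter on low counts. Itgav and Itga9 were not matched and were not analysed here.

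RNA had been sequenced in 9 libraries from lungs of Sprague-Dawley rat fetuses, 3 in each of 3 groups. The control group was control lung that received no treatment. The hypoplastic group was hypoplastic lung, underdeveloped after oligohydramnios (a lack of amniotic fluid), that received no treatment. The treated group was hypoplastic lung given AFSC-EV, the extracellular vesicles released by amniotic fluid stem cells. Strain was common to all groups. The labels used here do not name the fetal age, the dose, route and duration of the vesicles, or whether a library held 1 lung or pooled tissue. They also do not state that libraries came from separate litters, so p-values measure the spread between these libraries only.

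Osteopontin is a secreted phosphoprotein of the extracellular matrix and of body fluids. It belongs to the SIBLING family of small integrin-binding ligands, first studied in bone, and is also made by macrophages, activated T cells, smooth muscle and some epithelia. An arginine-glycine-aspartate motif binds integrins that contain the alpha-v or alpha-5 subunit, a neighbouring motif uncovered by thrombin binds integrins with alpha-4 or alpha-9, and other forms of the protein act through CD44, which is otherwise the main hyaluronan receptor. In the adult lung it is best known as a product of macrophages in injury and fibrosis.

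The sequence upstream of Spp1 is shown because Spp1 was the gene among these 7 that was chosen for a known difference between groups. It is the 250 bases before the transcript start in the RefSeq table of promoters, in build GRCr8, on the minus strand of chr14:5619805-5620054, written 5′ to 3′ with motif matches in capitals.
Spp1: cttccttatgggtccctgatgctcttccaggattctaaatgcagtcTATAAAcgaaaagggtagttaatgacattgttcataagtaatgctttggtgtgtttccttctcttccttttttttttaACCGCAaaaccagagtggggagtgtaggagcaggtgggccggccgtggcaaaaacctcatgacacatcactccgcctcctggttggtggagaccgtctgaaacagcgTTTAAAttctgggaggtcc
The first capitals are TATAAA, which begins 204 bases before the start and occurs in 12.9% of the 33469 rat windows of that length. The next are ACCGCA, the reverse complement of the RUNX core TGCGGT, 126 bases before the start and present in 5.02% of windows. The last are TTTAAA, 19 bases before the start and present in 12.3% of windows. None of the 3 matches overlapped another. Searched on both strands, the letters of another RUNX core (TGTGGT, in 14.5% of windows) and of the AP-1 site (TGANTCA, in 6.34%) did not occur here. Nor did those of the E-box (CACGTG, in 5.59%), the CCAAT box (in 34.0%) or the GC box (GGGCGG, in 30.5%). A match describes the letters and not a bound site.

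Spp1 transcripts were scarce in control lungs, abundant in hypoplastic lungs and in between in treated lungs. All levels are CPM, counts scaled to library size with TMM factors. In the control libraries 1, 2 and 3 Spp1 was at 3.57, 2.75 and 3.54 CPM, from 233, 154 and 261 estimated counts. In the hypoplastic libraries it was at 63.5, 164 and 89.8 CPM, from 4165, 10069 and 4959 estimated counts. In the treated libraries it was at 11.9, 18.3 and 8.53 CPM, from 907, 1533 and 581 estimated counts. No library of one group overlapped with those of another, and the order was control, treated, hypoplastic.

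**Figure D1:**
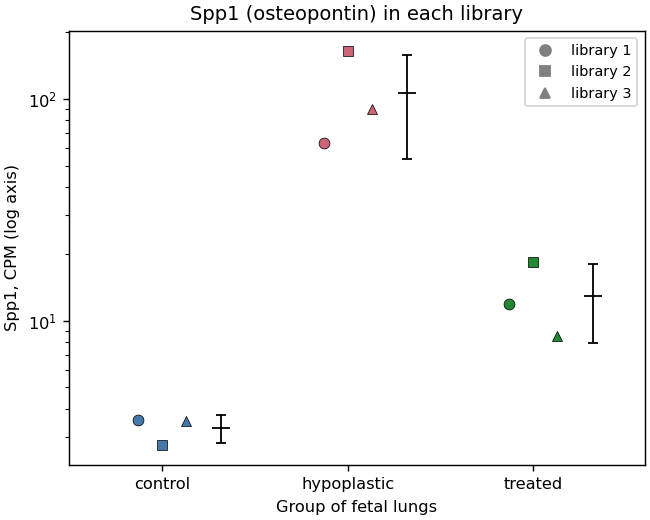
Spp1 level in CPM (log axis) in each of the 9 libraries, by group. Points are libraries, and the bar beside each group is the mean with the SD of 3 libraries. The control points lie between 2.75 and 3.57 CPM, the treated points between 8.53 and 18.3 CPM and the hypoplastic points between 63.5 and 164 CPM.

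The lowest hypoplastic library held 17.8 times the Spp1 level of the highest control library, and the highest hypoplastic library 59.9 times that of the lowest control library. The fitted difference between hypoplastic and control lungs was 32.1-fold, a log2 fold change of 5.01 (SE 0.419). Between hypoplastic and treated lungs the libraries differed by 3.46 to 19.3 times, and the fitted difference was 8.18-fold, higher in the hypoplastic lungs. Treated libraries lay 2.39 to 6.67 times above control libraries, with a fitted difference of 3.93-fold. Of the log2 difference between hypoplastic and control lungs, 39.5% was present between treated and control lungs. These comparisons share libraries and are not independent of each other.

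Within a group the Spp1 level varied more in hypoplastic and treated lungs than in control lungs. The coefficient of variation was 14.2% in control, 49.4% in hypoplastic and 38.5% in treated lungs (n = 3 each), and the highest library exceeded the lowest by 1.3, 2.59 and 2.15 times. Hypoplastic library 2 was the highest of all. In lung tissue as a whole, more cells that make osteopontin and more Spp1 RNA per cell cannot be told apart.

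Spp1 ranked 11 of 12966 tested genes by the size of its change between hypoplastic and control lungs, 61 between treated and hypoplastic lungs and 66 between treated and control lungs. Of all genes tested, 0.00771% (1 gene, Spp1) passed an edgeR adjusted p of 0.05 between hypoplastic and control lungs, and since Spp1 was chosen on this contrast nothing is read from that share. Without overlap of the library values, 7.68% of all genes were higher and 9.05% lower in hypoplastic than in control lungs, 4.74% were lower in treated than in hypoplastic lungs and 4.37% were higher in treated than in control lungs. Spp1 was not called when any 1 of the control libraries was left out, while its log2 fold change stayed between 4.89 and 5.07.

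A ratio of 2 genes within a library needs no scaling between libraries. Per 1000 estimated counts of Cd44, the control libraries held 16.0, 10.9 and 15.6 counts of Spp1. The hypoplastic libraries held 251, 667 and 410, and the treated libraries 59.0, 72.7 and 41.5. The mean ratio to Cd44 was thus 31.3 times higher in hypoplastic than in control lungs and 7.66 times higher than in treated lungs. Per 1000 estimated counts of Itgb1 the group means were 2.76 ± 0.0555 in control, 86.9 ± 50.4 in hypoplastic and 11.3 ± 3.02 in treated lungs (SD, n = 3). The order of the groups and their separation were the same on either denominator.

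None of the 6 measured receptor genes was called, and their differences were small beside that of Spp1, at most 0.37 on the log2 scale in hypoplastic against control lungs. Between hypoplastic and control lungs edgeR called 0 of 6 in either direction, 0 of 6 had an unadjusted p under 0.05, and DESeq2 and limma voom called 0 as well. The background among all genes was 0.00771% called by edgeR, 1.56% called by DESeq2 and 12.4% with an unadjusted p under 0.05. In each of the 3 comparisons the library values of the groups overlapped for all 6 genes, where 16.7%, 9.81% and 9.39% of all genes tested did not overlap between hypoplastic and control, treated and hypoplastic, and treated and control lungs.

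**Figure D2:**
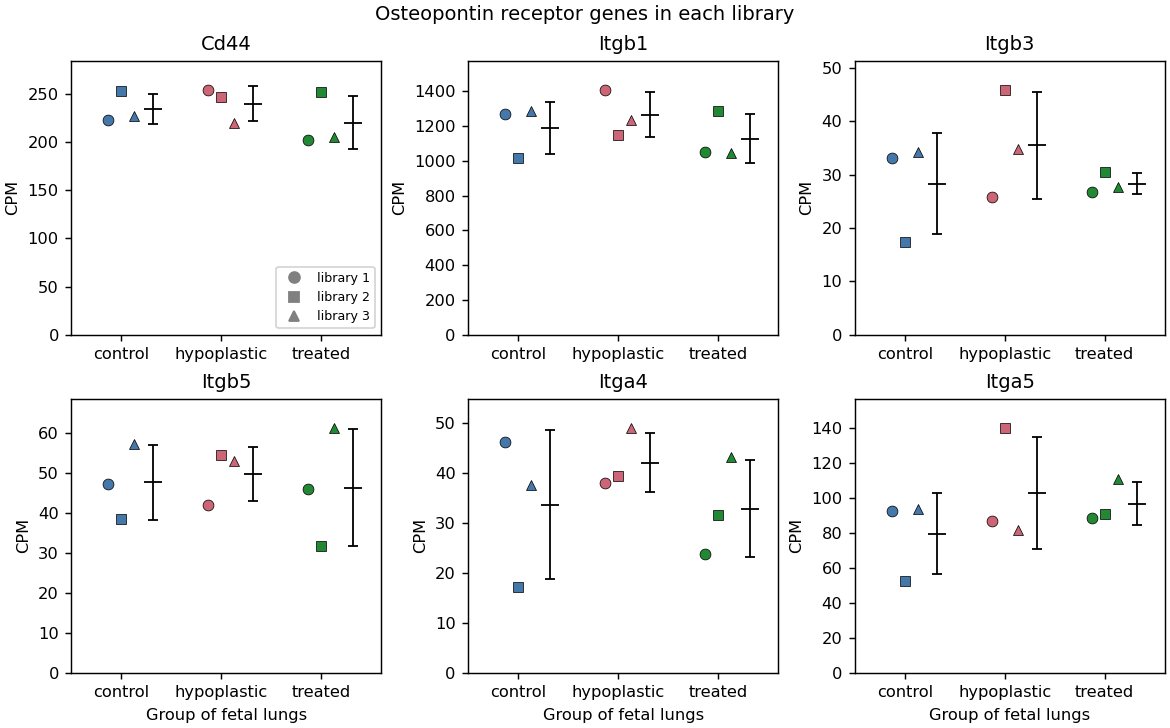
Level in CPM of the 6 receptor genes in each library, by group, on linear axes that start at 0. Points are libraries and bars are the mean with the SD of 3 libraries. For each gene the points of the 3 groups overlap, and control library 2 is the lowest library for Itgb1, Itgb3, Itga4 and Itga5.

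Cd44 encodes the transmembrane glycoprotein that binds hyaluronan and, in some forms, osteopontin. It was at 223, 252 and 227 CPM in control libraries 1, 2 and 3. The hypoplastic libraries held 253, 247 and 219 CPM, and the treated libraries 202, 252 and 206 CPM. Its highest and lowest libraries differed by only 1.25 times, the narrowest spread among the 7 genes, and each group had a library near the upper end. Cd44 had a log2 fold change in hypoplastic against control lungs of 0.03 (SE 0.115, adjusted p 0.925 by edgeR). Its 95% interval ran from 0.856-fold to 1.22-fold, far from the difference of Spp1. Between treated and hypoplastic lungs the interval was 0.767-fold to 1.10-fold. The counts add up all splice forms of Cd44, and the variant forms were not separated.

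Itgb1 encodes the beta-1 subunit, the common partner of the alpha-4, alpha-5 and alpha-9 subunits. Its control libraries stood at 1269, 1015 and 1284 CPM. The hypoplastic libraries stood at 1404, 1150 and 1236 CPM, and the treated libraries at 1050, 1288 and 1042 CPM. Control library 2 and treated library 3 were the lowest and hypoplastic library 1 the highest. Itgb1 had a log2 fold change of 0.09 (SE 0.151, adjusted p 0.848 by edgeR) in hypoplastic against control lungs, with an interval of 0.841-fold to 1.34-fold.

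Itgb3 encodes the beta-3 subunit, which with alpha-v forms the vitronectin receptor, the integrin through which osteopontin was first studied in osteoclasts. In control libraries it was at 33.1, 17.4 and 34.3 CPM. In hypoplastic libraries it was at 25.8, 45.8 and 34.9 CPM, and in treated libraries at 26.8, 30.4 and 27.6 CPM. The treated libraries were close together, while control and hypoplastic libraries each spread over 1.77 times or more. The log2 fold change was 0.33 (SE 0.265, adjusted p 0.643 by edgeR) in hypoplastic against control lungs and -0.33 (SE 0.265, adjusted p 0.940 by edgeR) in treated against hypoplastic lungs. Without control library 2 the first was 0.07, and without hypoplastic library 2 the second was -0.10.

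Itgb5 encodes the beta-5 subunit, another partner of alpha-v. It was at 47.4, 38.5 and 57.4 CPM in control libraries. The hypoplastic libraries held 41.9, 54.5 and 52.9 CPM, and the treated libraries 46.1, 31.8 and 61.2 CPM. The lowest and the highest library were both treated, so the treated group spanned the other groups. Itgb5 had a log2 fold change of 0.06 (SE 0.232, adjusted p 0.934 by edgeR) in hypoplastic against control lungs, with an interval of 0.727-fold to 1.49-fold.

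Itga4 encodes the alpha-4 subunit, found mainly on leukocytes, which binds the thrombin-exposed motif of osteopontin as well as VCAM-1 and fibronectin. Its control libraries held 46.3, 17.2 and 37.7 CPM. The hypoplastic libraries held 38.0, 39.5 and 49.0 CPM, and the treated libraries 23.9, 31.5 and 43.2 CPM. Control library 2 was the lowest by a wide margin. Itga4 had a log2 fold change of 0.32 (SE 0.329, adjusted p 0.722 by edgeR) in hypoplastic against control lungs, and 0.0046 without control library 2. Its interval, up to 2.08-fold, was the widest of the 6.

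Itga5 encodes the alpha-5 subunit of the fibronectin receptor. In control libraries it was at 92.4, 52.7 and 94.0 CPM. In hypoplastic libraries it was at 86.8, 140.0 and 82.1 CPM, and in treated libraries at 88.7, 90.8 and 111 CPM. A single hypoplastic library, library 2, stood above the rest, and control library 2 below them. The log2 fold change was 0.37 (SE 0.255, adjusted p 0.577 by edgeR) in hypoplastic against control lungs, the largest of the 6, and 0.08 without hypoplastic library 2.

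**Figure D3:**
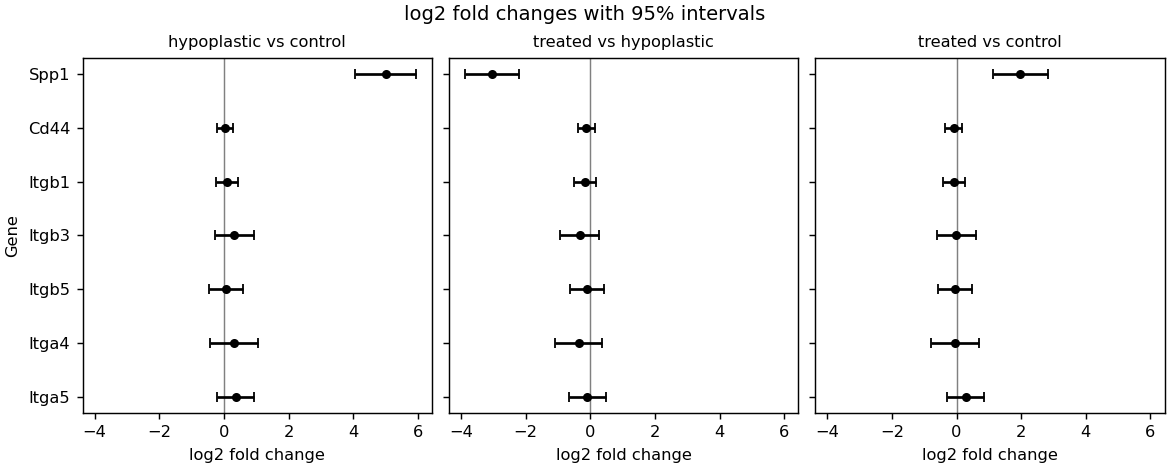
Log2 fold changes of the 7 genes in the 3 comparisons, with 95% intervals from the fit across all genes, each panel on the same axis. The receptor genes lie between -0.36 and 0.37 with intervals that include 0, and Spp1 lies at 5.01, -3.03 and 1.98.

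As a set the 6 receptor genes had a median log2 fold change of 0.20 in hypoplastic against control lungs, beside 0.01 over all genes tested, with 6 above 0. In treated against hypoplastic lungs the median was -0.14, beside -0.01, with 6 below 0. edgeR, DESeq2 and limma voom called 0 of them and 0 had an unadjusted p under 0.05, beside 5.56% of all genes with such a p and 0.131% called by DESeq2. These comparisons share the hypoplastic libraries. In treated against control lungs the median was -0.04, beside 0.00278, with 1 above 0 and 5 below, with 0 called by any of the 3 tools and 0 at an unadjusted p under 0.05, beside 4.17% of all genes with such a p and 0.108% called by DESeq2. In both of these comparisons edgeR called 0% of all genes. The intervals of the 6 genes lay within -0.46 to 1.06 on the log2 scale in hypoplastic against control lungs. Changes inside an interval were not excluded, and its ends do not mark the smallest change that would be called. With 3 libraries a group, larger changes also went uncalled by edgeR, such as 1.11 for Ccn1 and 3.01 for Mmp9, both described below.

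The alpha subunits were also set against their beta-1 partner within each library. Per 1000 estimated counts of Itgb1, Itga5 had means of 66.0 ± 12.2 in control, 83.3 ± 33.3 in hypoplastic and 87.2 ± 18.2 in treated lungs (SD, n = 3). For Itga4 they were 27.6 ± 9.90, 33.7 ± 6.31 and 29.6 ± 10.3. For both ratios the libraries of all 3 groups overlapped, and the differences were not tested.

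Related genes were counted from lists of known partners. The other SIBLING genes were at most barely present. Ibsp, which encodes bone sialoprotein, reached at most 0.426 CPM, Dmp1 0.107 CPM and Mepe 0.0239 CPM in any library, and Dspp was at 0 in all 9. Only Ibsp passed the filter, with a log2 fold change of -1.25 (SE 1.52, adjusted p 0.769 by edgeR) in hypoplastic against control lungs.

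Among 15 tested genes for other ligands of these integrins or of CD44, including enzymes that make hyaluronan, edgeR called 0. In hypoplastic against control lungs 5 were higher and 2 lower at an unadjusted p under 0.05, and DESeq2 called 2 higher, beside 12.4% of all genes with such a p and 1.56% called by DESeq2. The median log2 fold change was 0.49, or 0.11 without hypoplastic library 2. Ccn1, which encodes a matricellular integrin ligand, was at 149, 112 and 215 CPM in control, 318, 320 and 385 CPM in hypoplastic and 329, 345 and 199 CPM in treated libraries. The hypoplastic libraries lay above all control libraries, and treated library 3 lay among the controls. The log2 fold change of Ccn1 in hypoplastic lungs was 1.11 (SE 0.259, adjusted p 0.317 by edgeR). Has2, a hyaluronan synthase, was at 1.89 to 3.06 CPM in control, 4.54 to 5.23 in hypoplastic and 3.96 to 7.04 in treated libraries. Its log2 fold change was 0.94 (SE 0.255, adjusted p 0.317 by edgeR) in hypoplastic and 1.15 (SE 0.253, adjusted p 0.998 by edgeR) in treated lungs, each against control.

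Of 16 other integrin subunits tested, edgeR called 0 in each comparison. In hypoplastic against control lungs 4 were higher and 3 lower at an unadjusted p under 0.05, and DESeq2 called 2 lower, beside 12.4% of all genes with such a p and 1.56% called by DESeq2. Their median log2 fold change was 0.18, or 0.0060 without control library 2. Their summed level went the other way, at 492 to 562 CPM in hypoplastic libraries, below the 605 to 612 CPM of control libraries, with 531 to 606 CPM in treated libraries. Itgb6 encodes the beta-6 subunit of epithelial cells, which pairs with alpha-v and activates latent TGF-beta. It was at 66.4, 110.0 and 64.8 CPM in control, 37.1, 44.7 and 40.9 CPM in hypoplastic and 48.5, 48.2 and 47.3 CPM in treated libraries. The 3 groups did not overlap, and control library 2 was far above the rest. Its log2 fold change was -0.98 (SE 0.192, adjusted p 0.317 by edgeR) in hypoplastic and -0.75 (SE 0.191, adjusted p 0.998 by edgeR) in treated lungs against control. Itga3, the alpha-3 subunit of a laminin receptor, had means of 205 ± 20.5, 139 ± 16.2 and 188 ± 29.6 CPM in control, hypoplastic and treated lungs (SD, n = 3). Its log2 fold change in hypoplastic lungs was -0.56 (SE 0.14, adjusted p 0.317 by edgeR), and treated libraries did not overlap with hypoplastic ones.

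**Figure D4:**
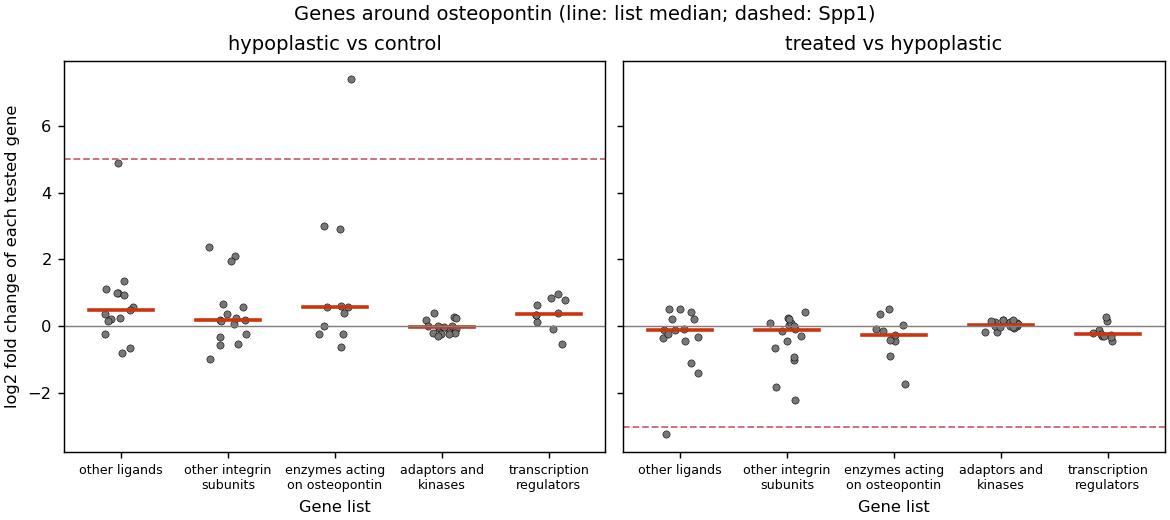
Log2 fold change of each tested gene in 5 lists of genes around osteopontin, in hypoplastic against control and treated against hypoplastic lungs. Points are genes, the solid line is the list median and the dashed line is Spp1. In the first panel the list medians lie between -0.04 and 0.57, and the point above Spp1 is Mmp3, whose control libraries held 0 to 0.0153 CPM.

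Of 11 tested enzymes that cleave, crosslink or otherwise modify osteopontin, edgeR called 0. In hypoplastic against control lungs 5 were higher and 1 lower at an unadjusted p under 0.05, and DESeq2 called 2 higher, beside 12.4% of all genes with such a p and 1.56% called by DESeq2. The median log2 fold change was 0.57, or 0.23 without hypoplastic library 2. Mmp9, a gelatinase of neutrophils and macrophages that can cleave osteopontin, was at 1.24, 0.392 and 1.61 CPM in control libraries. Hypoplastic libraries held 3.75, 19.1 and 3.84 CPM, and treated libraries 2.78, 0.933 and 4.45 CPM. Hypoplastic library 2 was again the highest, and treated libraries overlapped both other groups. The log2 fold change of Mmp9 in hypoplastic lungs was 3.01 (SE 0.809, adjusted p 0.317 by edgeR). Alpl, the tissue-nonspecific alkaline phosphatase, had means of 413 ± 31.2, 267 ± 48.6 and 380 ± 92.7 CPM in control, hypoplastic and treated lungs (SD, n = 3), and a log2 fold change of -0.63 (SE 0.191, adjusted p 0.323 by edgeR) in hypoplastic lungs.

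The 16 genes for adaptors and kinases inside the cell that transmit integrin and CD44 signals had small differences, none of them called by edgeR or DESeq2. At an unadjusted p under 0.05, 1 was lower, beside 12.4% of all genes in either direction. Their summed level was 2660 to 2850 CPM in hypoplastic libraries, below the 2890 to 3130 CPM of control and the 2890 to 2950 CPM of treated libraries. The median log2 fold change was -0.04 in hypoplastic against control and 0.04 in treated against hypoplastic lungs. Msn encodes moesin, which links CD44 to actin, and had a log2 fold change of -0.30 (SE 0.109, adjusted p 0.354 by edgeR) in hypoplastic lungs. That of Fermt2, which encodes the integrin activator kindlin-2, was -0.23 (SE 0.107, adjusted p 0.425 by edgeR).

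Of 10 known or candidate regulators of Spp1 transcription, edgeR called 0 in each comparison. In hypoplastic against control lungs 3 were higher and 1 lower at an unadjusted p under 0.05, and DESeq2 called 2 higher and 1 lower, beside 12.4% of all genes with such a p and 1.56% called by DESeq2. The median log2 fold change was 0.37, or 0.19 without hypoplastic library 2. The 10 genes summed to 1100 to 1410 CPM in hypoplastic libraries, above the 800 to 985 CPM of control libraries. Treated libraries held 895 to 1190 CPM and overlapped both. Pearson's r of the log2 sum with log2 Spp1 over the 9 libraries was 0.861. That r is a description, as Spp1 was chosen for its difference between groups. Fos, a subunit of AP-1, was at 49.8, 59.3 and 46.1 CPM in control, 102, 89.7 and 110.0 CPM in hypoplastic and 75.4, 121 and 56.1 CPM in treated libraries. The hypoplastic libraries lay above the controls, and the treated libraries overlapped both. The log2 fold change of Fos in hypoplastic lungs was 0.96 (SE 0.241, adjusted p 0.317 by edgeR). Vdr, the vitamin D receptor, had a log2 fold change of -0.52 (SE 0.14, adjusted p 0.317 by edgeR). Runx2, the bone transcription factor, was at 3.23 ± 0.482, 5.08 ± 2.46 and 4.17 ± 0.365 CPM in control, hypoplastic and treated lungs (SD, n = 3), with overlap of the hypoplastic and control libraries.

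The genes whose levels were most like those of Spp1 were found by Pearson's r of log2 CPM over the 9 libraries, among 11351 named genes whose mean level was 1 CPM or more. The choice of Spp1 for its difference between groups fixes much of this ranking, so it is a description. The 8 highest were Lgals1 (r 0.939), Trem1 (0.939), Arhgap10 (0.934), Gatm (0.931), Cyp2j4 (0.926), Csrp2 (0.916), Sp140 (0.911) and P3h3 (0.908). Their Spearman's rho ran from 0.867 for Sp140 to 0.983 for Csrp2. With hypoplastic libraries 2 and 3, the libraries farthest from the median of Spp1, left out, r was 0.956 for Lgals1 and 0.83 to 0.879 for the other 7. The ranking itself did not hold: 1 of the 8 was still among the 8 highest without those libraries, and 3 of the 8 by Spearman's rho over all 9. Lgals1, which encodes the secreted lectin galectin-1, was at 28.4, 25.8 and 30.6 CPM in control libraries. Hypoplastic libraries held 55.3, 72.0 and 43.7 CPM, and treated libraries 31.6, 41.1 and 32.6 CPM. The 3 groups of Lgals1 did not overlap, in the order found for Spp1, over a far narrower range. Trem1, a receptor of neutrophils and monocytes, had means of 0.807, 3.34 and 1.45 CPM in control, hypoplastic and treated lungs. The lowest r were those of Adck1 (-0.966), Hist1h2bo, a histone H2B gene (-0.959), and Pkp3, which encodes a desmosome protein (-0.941).

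When the group means were removed, which left the deviations of each gene 6 degrees of freedom over 9 libraries, other genes ranked highest. These were Ifngr2, a subunit of the interferon-gamma receptor (r 0.988), S100a4 (0.967), Mblac1 (0.958), Card10 (0.953) and Nr4a1 (0.945). They were picked as the highest of 11351 genes over few libraries, so their high r comes in part from that choice and is a description. With group means kept, their r with Spp1 ran from 0.0672 for Card10 to 0.705 for Ifngr2. Over the 9 libraries with group means kept, r with Spp1 was 0.0861 to 0.535 for the 6 receptor genes, highest for Itgb3 and lowest for Itgb5. It was 0.218 for Cd44, 0.298 for Itgb1, 0.402 for Itga4 and 0.486 for Itga5.

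Libraries held 56922779 to 88243188 estimated counts. Markers of other cell types also differed between libraries and are described here by their summed levels. All 8 macrophage markers (Cd68, Csf1r, Adgre1, Mrc1, Cd163, C1qa, C1qb and C1qc) were detected. Their summed level was 33.8 to 139 CPM in control, 100 to 314 CPM in hypoplastic and 84.0 to 268 CPM in treated libraries, with overlap of the groups. All 8 had a positive log2 fold change in hypoplastic against control lungs, with a median of 0.94 beside 0.01 over all genes tested. DESeq2 called 1 of the 8, beside 1.56% of all genes. The 6 neutrophil markers summed to 5.64 to 10.2 CPM in control, 51.9 to 87.9 CPM in hypoplastic and 17.3 to 74.9 CPM in treated libraries, so that hypoplastic and control libraries did not overlap. All 5 neutrophil markers tested had a positive log2 fold change in hypoplastic against control lungs, with a median of 3.32, and DESeq2 called 4 of them higher, beside 1.56% of all genes called by DESeq2. Over the 9 libraries, r of the log2 sum with log2 Spp1 was 0.501 for macrophage and 0.763 for neutrophil markers. These libraries share the group differences, so the r are descriptions. Within the treated group, library 3 had the lowest Spp1 level, 8.53 CPM, and the highest sums of macrophage (268 CPM) and neutrophil markers (74.9 CPM). Within the hypoplastic group, library 2 had the highest Spp1 level, 164 CPM, the highest macrophage sum (314 CPM) and the lowest neutrophil sum (51.9 CPM). Within the control group, library 2 had the lowest Spp1 level, 2.75 CPM, and the lowest macrophage sum (33.8 CPM), with a neutrophil sum of 9.31 CPM.

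**Figure D5:**
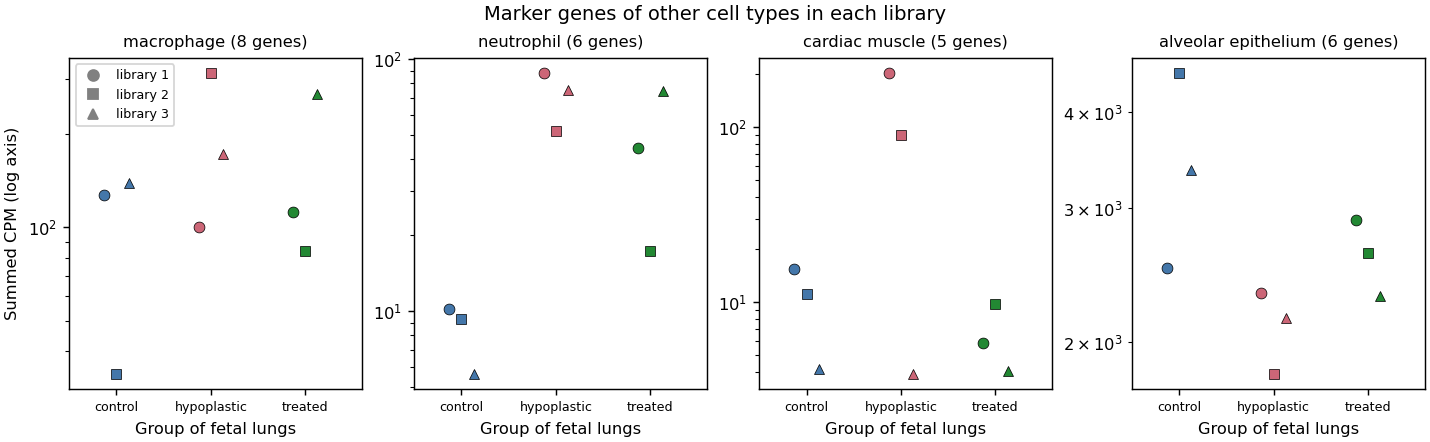
Summed CPM (log axes) of marker genes of 4 other cell types in each library, by group. Points are libraries. The neutrophil sums of control libraries (5.64 to 10.2 CPM) lie below all others, the macrophage sums overlap between groups, and hypoplastic libraries 1 and 2 have the highest cardiac muscle sums (203 and 90.4 CPM).

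Bone-forming cells and cartilage were checked because they express Spp1 strongly. Of the 5 markers in the table, Ibsp reached at most 0.426 CPM, Bglap (osteocalcin) 0.137 CPM and Sp7 (osterix) 0.152 CPM, while Runx2 reached 7.9 CPM. Col2a1, the main collagen of cartilage, was at 410.0, 118 and 339 CPM in control libraries. Hypoplastic libraries held 894, 375 and 510.0 CPM of Col2a1, and treated libraries 463, 482 and 390.0 CPM. Its log2 fold change in hypoplastic lungs was 1.04 (SE 0.427, adjusted p 0.379 by edgeR), and the groups overlapped. The 5 markers summed to 121 to 414 CPM in control, 383 to 899 CPM in hypoplastic and 396 to 486 CPM in treated libraries, with an r of 0.579 with Spp1. The 4 skeletal muscle markers summed to 8.87 to 10.2 CPM in control, 12.9 to 16.9 CPM in hypoplastic and 9.98 to 14.7 CPM in treated libraries. Hypoplastic and control libraries did not overlap in that sum, whose r with Spp1 was 0.822. All 3 tested markers were higher in hypoplastic than in control lungs at an unadjusted p under 0.05, with 0 called by edgeR or DESeq2. Of all genes tested, 12.4% had such a p in either direction and 1.56% were called by DESeq2. Acta1 held most of the sum, and of the 3 it alone did not overlap between hypoplastic and control libraries. Without overlap, 7.68% of all genes were higher in hypoplastic libraries. In hypoplastic library 3, Ckm was at 0.742 CPM and Myh3 at 0.0362 CPM. Control libraries held 0.814 to 0.981 CPM of Ckm and 0 to 0.0949 CPM of Myh3. The 5 heart muscle markers summed to 203, 90.4 and 3.91 CPM in hypoplastic libraries 1, 2 and 3, to 4.15 to 15.5 CPM in control and to 4.07 to 9.79 CPM in treated libraries, with an r of 0.516. Alveolar epithelial markers summed to 2500 to 4500 CPM in control, 1820 to 2320 CPM in hypoplastic and 2300 to 2890 CPM in treated libraries, with control above hypoplastic libraries, treated libraries overlapping both and an r of -0.789. Mesenchymal markers summed to 1160 to 3410 CPM in control, 2660 to 9550 CPM in hypoplastic and 1800 to 2770 CPM in treated libraries. The r of that sum with Spp1 was 0.622. Endothelial markers summed to 645 to 808, 624 to 796 and 598 to 798 CPM, with an r of -0.0176. For mesothelial markers the sums were 17.7 to 30.8, 22.9 to 77.8 and 12.8 to 31.4 CPM, with an r of 0.476. Red cell markers summed to 3080 to 9270, 2700 to 5320 and 2930 to 5300 CPM, with an r of -0.388. Liver markers reached at most 5.87 CPM in any library. The part of these cell types in the Spp1 difference was not tested.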

How the data were processed

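The authors deposited 1 table of estimated counts per gene, named by NCBI Gene ID, with 17465 genes and 9 libraries of ribosome-depleted total RNA. The submitters' processing notes name the rn7 build and DESeq2. The table's name contains the words feature count, which is the only hint of the counter. The aligner, the counter's version and the gene annotation were not given in the sources used. Of nonzero values 19.52% were whole, and how the fractions arose is not stated. Symbols came from RefSeq GRCr8 (17314 IDs matched). They named the genes and picked out the members and the lists, and genes without a symbol were left out of the ranking by r.

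Estimated counts were rounded, filtered with filterByExpr (12966 genes kept), normalized by TMM and tested with edgeR 4.0.16 (glmQLFit, glmQLFTest, R 4.3.3), all 9 libraries in 1 fit with 6 residual degrees of freedom. P-values were adjusted by Benjamini-Hochberg over all genes, with calls under 0.05. SE is the absolute log2 change over the root of F, and 95% intervals use the fit's degrees of freedom. Scripts were tested on simulated data. DESeq2 1.42.0 and limma voom 3.58.1 were alternatives.

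Members and lists were chosen with earlier results of these data known, and the promoter motifs after the sequence was seen. Named genes were all members, the genes most like Spp1 (8 highest, 3 lowest, 5 highest with group means removed) and the 2 of smallest p per related list. Runx2 and Mmp3 were added after their values were seen.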

Additional observations from a re-analysis of the deposited data

How the results depend on the processing

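The log2 change of Spp1 kept its direction in all 45 alternatives, and no receptor gene was called in any of 270. DESeq2 called 202, 17 and 14 genes between hypoplastic and control, between treated and hypoplastic, and between treated and control lungs, with 1 of the 7 genes in each, Spp1 (log2 changes -3.04 and 1.98 in the last comparisons). edgeR called 4 with only the 6 libraries compared and 2 with the replicate block in the first comparison. Same-numbered libraries are not said to be paired. Deviations from group means correlated above 0.1 in 3 of 9 such pairs (-0.282 to 0.227) and in 7 of 18 other pairs (-0.439 to 0.389). With 3 libraries a group, these values cannot decide whether the numbers mark a pairing. The cause of the shifts in the number of genes called was not tested.

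With 1 library left out, edgeR called from 0 to 45 genes in the first comparison (45 without hypoplastic library 3), from 0 to 44 in the second (44 without the same library) and from 0 to 1 in the last. Of the 7 genes it called 0 to 1, 0 to 1 and 0. The Spp1 log2 change ran from 4.54 to 5.27, -3.37 to -2.56 and 1.64 to 2.20. In treated against hypoplastic lungs edgeR called Spp1 without hypoplastic library 1 or 3, and in neither the fit of all libraries nor the other 4 such fits. Spp1 was chosen for its difference, so these calls are no test of it.

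Receptor changes near 0 reversed in 22 alternatives, none called. In hypoplastic against control lungs the leave-one-out ranges were -0.0084 to 0.0931 for Cd44, -0.016 to 0.15 for Itgb1 and -0.074 to 0.21 for Itgb5. In treated against hypoplastic lungs they were -0.35 to 0.11 for Itgb5 and -0.23 to 0.20 for Itga5. In treated against control lungs they were -0.25 to 0.16 for Itgb3, -0.29 to 0.17 for Itgb5 and -0.35 to 0.27 for Itga4. There the change of Itgb3 was 0.00093 with RLE factors, 0.00017 without a filter, 0.0016 with DESeq2 and 0.049 with limma voom. With the replicate block it was 0.00033. Itga4 stood at 0.0022 with that block and at 0.023 with limma voom.

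Of 225 list medians under alternatives, 3 moved by more than the spread between libraries, all without hypoplastic library 2: regulators to 0.19 in hypoplastic against control lungs, and regulators to -0.0076 and adaptors to 0.13 in treated against hypoplastic lungs. Ligands and enzymes were at 0.15 and 0.24 there without that library, above 0 in place of -0.11 and -0.26. Levels per coding length were not run because no coding lengths were used here.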
